A study of Mus musculus with 12 samples.

Results

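The nuclear genes of the mitochondrial respiratory chain were followed in adipocyte precursor cells (APCs), the fibroblast-like cells of white fat that give rise to adipocytes. The genes were every entry of the count table whose symbol begins as a complex subunit does (Ndufa, Ndufb, Ndufc, Ndufs, Ndufv, Sdha to Sdhd, Uqcr, Cyc1, Cycs, Cox4 to Cox8 and Atp5). The rule found 89 of the 14398 genes in the table, and all 89 passed the filter on low counts. By known function, 36 of them are subunits of complex I, 4 of complex II, 9 of complex III, 15 of complex IV and 15 of complex V, and 1 encodes cytochrome c. The remaining 9 match by name without being such a subunit. They are 4 complex I assembly factors (Ndufaf1 to Ndufaf4), the supercomplex factor Cox7a2l, the Ndufa4 paralog Ndufa4l2, and 3 genes named after complexes they do not belong to (Atp5s, Atp5sl and Cox4nb). Ndufa4 was counted with complex IV, where its protein resides, although its symbol places it in complex I.

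Poly(A) RNA was sequenced from male C57Bl6/J mice aged 6 to 8 weeks in 4 groups of 3 libraries. VWAT_HFD and SWAT_HFD are APCs of perigonadal (VWAT) and inguinal subcutaneous (SWAT) fat after 3 days of a high-fat diet with 60% lard (HFD), and VWAT_SD and SWAT_SD are the same depots on standard diet (SD), given in the labels as day 0. Each library pooled 3 mice, and the APCs had been sorted as CD45-, CD31-, CD29+, CD34+ and Sca1+ cells with or without CD24. Day 0 goes with SD, so diet and any effect of collection day cannot be told apart, and p-values measure only the spread between these pools.

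The respiratory chain passes electrons from NADH (complex I) and succinate (complex II) through coenzyme Q to complex III, cytochrome c and complex IV, where oxygen is reduced. Protons pumped on the way drive ATP synthesis by complex V. Most subunits are encoded in the nucleus and a few in mitochondrial DNA, so that both genomes must be expressed to build complexes I, III, IV and V. In white fat, oxidative capacity rises as precursors become adipocytes, and several complex IV subunits come in a common form and in a form typical of muscle, heart, brown fat, testis or lung.

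Sequencing depth ranged from 17.6 M to 56.1 M counts on genes (M, 1e+06) among the libraries, of which the 89 genes took 0.283 to 0.456%. Genes of the sort gate and of APCs summed to between 4571 and 8678 CPM (counts per 1e+06 counts, scaled by TMM) in every library, against 1.72 to 5.61 CPM for 5 mature adipocyte genes and 7.68 to 45.4 CPM for 9 leukocyte genes. The leukocyte sum was 7.68 to 10.7 CPM in VWAT_HFD and 13.4 to 45.4 CPM in SWAT_HFD. On SD it was 11.3 to 17.65 CPM in VWAT and 12.3 to 15.2 CPM in SWAT. Of 8 leukocyte genes tested, 4 were lower in VWAT on HFD and 0 on SD (edgeR adjusted p under 0.05). With HFD in SWAT, 7 of the 8 had log2 changes above 0 and none passed. Of 5 mesothelial genes, 3 (Wt1, Msln and Upk3b) were higher in VWAT on both diets, Krt19 was lower (log2 -2.07 on SD and -2.61 on HFD; edgeR adjusted p = 0.00229 and 0.000529) and Lrrn4 did not pass. Wt1 carried nearly all of their sum, at 97.8 to 127.6 CPM in VWAT libraries and 0.183 to 0.602 CPM in SWAT libraries, and the other 4 summed to overlapping levels of 1.70 to 6.86 CPM in VWAT and 2.21 to 4.33 CPM in SWAT. In such bulk samples fewer cells of a type and less RNA per cell cannot be told apart. Per kb of annotated transcript, the median level was 80.7 CPM for complex V, 52.9 CPM for complex III, 52.1 CPM for complex IV, 49.3 CPM for complex II and 32.9 CPM for complex I. The highest level per kb was that of Atp5b, the catalytic beta subunit of complex V, at 176 CPM, and the lowest that of Cox4i2, a lung form of complex IV subunit IV, at 0.357 CPM. Cox4i1, the common form, stood at 145 CPM per kb, and the levels of all 4 tissue forms of complex IV lay at the low end of their complex. These per-length levels rest on the median length of each gene's annotated protein-coding transcripts and not on the isoforms present.

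**Figure D1:**
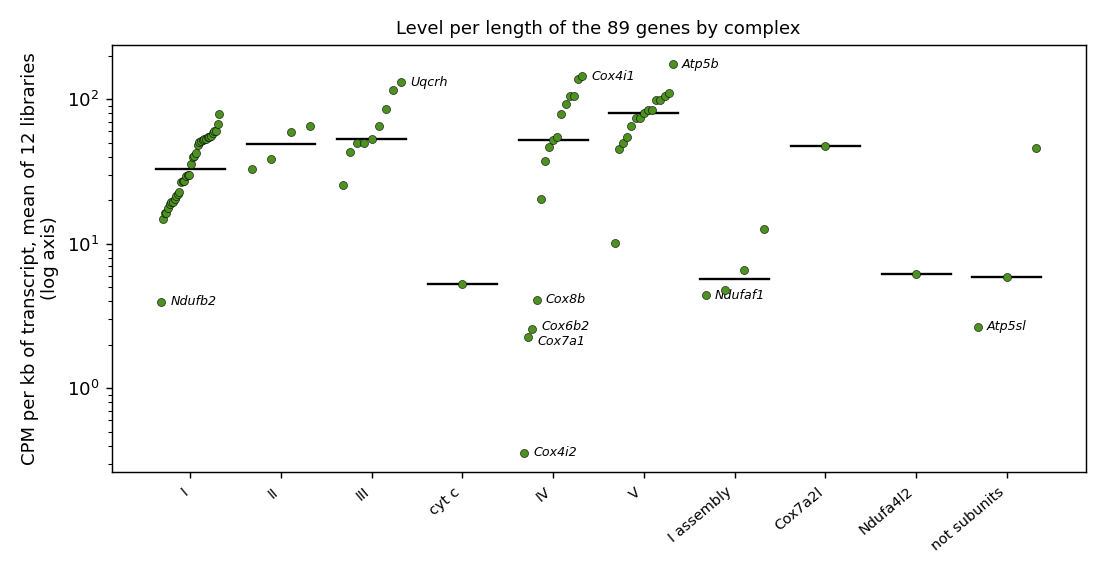
Mean level of each of the 89 genes over the 12 libraries in CPM per kb of transcript (log axis), arranged by complex, with a bar at the median. Cox8b, Cox6b2, Cox7a1 and Cox4i2 of complex IV lie well under the common forms of that complex and Atp5b tops complex V.

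Promoter sequence is shown for the genes on which the results below turn. For 74 of the 89 genes RefSeq (GRCm38.p6) gave a window of 300 bases that runs from 250 before the transcription start to 50 after it. The windows were searched on both strands for 4 motifs of factors known to bind promoters of nuclear respiratory genes, GCGCATGCG (NRF1), CCGGAAGT (the ETS factor GABPA), AAGATGGCG (YY1) and TNAAGGTCA (estrogen-related receptors). At least 1 of the 4 was present for 33.8% of the 74 genes and for 8.86% of all 27025 genes with windows of the same length. NRF1 letters were in 13.5% against 1.95%, YY1 letters in 10.8% against 1.64%, GABPA letters in 6.76% against 4.31% and receptor letters in 4.05% against 1.43%. The NRF1, YY1 and GABPA letters each hold a CpG dinucleotide. At least 10 CpG were found in 94.6% of the 74 windows and in 43.9% of all windows. Whether the motif difference goes beyond this difference in CpG was not tested. A match describes letters only and does not show binding. The windows of Cox8b and Cox8a, the tissue and common forms of complex IV subunit VIII, are shown because Cox8b differed most between the depots. Those of Cox5a and Atp5g1 are shown because these genes rose with HFD in VWAT, that of Atp5g3 because it encodes the same protein as Atp5g1, and that of Ndufa11 because its diet change differed most by p between the depots, though not past the test. Capitals mark a motif match, which is CCGGAAGT read on the opposite strand in Cox8a, TNAAGGTCA read on the opposite strand in Atp5g3 and GCGCATGCG on both strands, overlapping, in Ndufa11. Each window is written 5′ to 3′ on the strand of its gene. The last bases of the Cox5a window matched no annotated Cox5a transcript, so the placement of that window is uncertain.
Cox8b (chr7:140900397-140900696, minus strand): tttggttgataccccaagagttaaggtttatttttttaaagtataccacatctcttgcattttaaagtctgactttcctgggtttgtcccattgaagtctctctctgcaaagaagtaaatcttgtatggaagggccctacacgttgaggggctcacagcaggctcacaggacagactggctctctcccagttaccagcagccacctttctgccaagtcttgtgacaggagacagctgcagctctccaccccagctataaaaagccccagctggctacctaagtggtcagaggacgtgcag
Cox8a (chr19:7217567-7217866, minus strand): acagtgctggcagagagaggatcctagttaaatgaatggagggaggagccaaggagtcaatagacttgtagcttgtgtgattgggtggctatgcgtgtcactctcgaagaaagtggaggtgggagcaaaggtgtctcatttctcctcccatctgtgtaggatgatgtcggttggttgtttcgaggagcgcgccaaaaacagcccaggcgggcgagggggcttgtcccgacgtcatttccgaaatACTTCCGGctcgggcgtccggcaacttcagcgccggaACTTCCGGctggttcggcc
Cox5a (chr9:57520982-57521281, plus strand): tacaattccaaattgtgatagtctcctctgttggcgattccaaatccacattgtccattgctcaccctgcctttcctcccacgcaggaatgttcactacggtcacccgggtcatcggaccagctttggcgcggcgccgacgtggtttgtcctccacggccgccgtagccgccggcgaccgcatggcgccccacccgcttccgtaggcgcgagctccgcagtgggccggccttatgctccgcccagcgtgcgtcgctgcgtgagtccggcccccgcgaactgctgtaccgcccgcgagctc
Atp5g1 (chr11:96075582-96075881, minus strand): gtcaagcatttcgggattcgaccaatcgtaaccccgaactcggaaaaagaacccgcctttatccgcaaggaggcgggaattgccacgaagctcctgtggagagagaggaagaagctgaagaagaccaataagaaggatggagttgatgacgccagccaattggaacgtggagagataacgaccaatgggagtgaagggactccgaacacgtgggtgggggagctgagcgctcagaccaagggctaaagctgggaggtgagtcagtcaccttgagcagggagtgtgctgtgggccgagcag
Atp5g3 (chr2:73911277-73911576, minus strand): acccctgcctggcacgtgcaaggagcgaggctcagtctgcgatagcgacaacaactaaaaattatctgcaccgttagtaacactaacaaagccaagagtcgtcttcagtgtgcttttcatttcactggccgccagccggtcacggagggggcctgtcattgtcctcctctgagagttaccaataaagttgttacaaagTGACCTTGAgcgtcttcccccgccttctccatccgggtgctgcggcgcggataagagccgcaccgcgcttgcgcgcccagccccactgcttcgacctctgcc
Ndufa11 (chr17:56717512-56717811, plus strand): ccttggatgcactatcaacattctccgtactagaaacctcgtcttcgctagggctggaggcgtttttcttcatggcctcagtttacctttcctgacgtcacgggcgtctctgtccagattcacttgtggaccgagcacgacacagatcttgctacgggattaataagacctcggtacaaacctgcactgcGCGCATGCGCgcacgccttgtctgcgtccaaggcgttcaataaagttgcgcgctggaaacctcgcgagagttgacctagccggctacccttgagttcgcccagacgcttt
The Cox8b window holds 2 CpG dinucleotides, against 19 in Cox8a, 16 in Atp5g1 and 35 in Cox5a, and none of the 4 motifs. The median was 20 CpG over the 74 windows of the group and 7 over all windows. At least 10 CpG were found in 94.6% of the 74 windows and in 43.9% of all windows, and the exceptions in the group were Cox8b, Cox7b, Cox7a1 and Ndufc2.

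HFD against SD in VWAT addresses how the chain of visceral APCs responds to short high-fat feeding. Of the 89 genes, 3 rose and 1 fell, which is 4.49% of them, where 15.6% of all 14266 genes tested were called (edgeR's quasi-likelihood test, adjusted p under 0.05). Of all genes, 8.64% rose and 6.98% fell. Those that rose were Cox5a and Cox4i2 of complex IV and Atp5g1 of complex V, and the gene that fell was the assembly factor Ndufaf1. Changes were small: 87 of the 89 genes stayed within 1.5-fold, while 75 had a log2 change above 0 and 14 below. The median log2 change (HFD over SD) was 0.16 for the 89 genes and -0.02 for all genes tested. That of the 89 was 0.03, with 54 above 0, without VWAT_HFD replicate 1, and 0.30, with 80 above 0, without VWAT_HFD replicate 3. Scaling by library size alone moved the median of all genes to -0.13 and that of the 89 to 0.05, with 54 above 0, and Cox5a and Atp5g1 then no longer passed while Cox7a2l and Atp5s fell. DESeq2 called 6 of the 89, which is 6.74% against 19.5% of all genes. It added Cycs (adjusted p = 0.0365), Uqcrq (0.0447) and Ndufa4l2 (0.0258) and left out Cox4i2 (0.067). Ndufa4l2 also passed with limma voom (0.0471) and with DESeq2's size factors in edgeR (0.0485), and with these size factors Ndufaf1 did not (0.0515).

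Cox5a, a nuclear subunit of the complex IV core assembly, had 16.0, 15.6 and 14.3 CPM in VWAT_HFD libraries, against 9.61, 11.2 and 12.8 CPM in VWAT_SD libraries. Every HFD library lay above every SD library, and the log2 change was 0.45 ± 0.13 (SE, n = 3 each; edgeR adjusted p = 0.0374). In the annotation, 21.7% of the 75-base stretches of Cox5a also occur in 1 other transcript, and the gene Gm26631 overlaps it on the opposite strand, so its counts carry that uncertainty.

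Cox4i2 had 0.623, 0.321 and 0.366 CPM in VWAT_HFD libraries, against 0.136, 0.254 and 0.148 CPM in VWAT_SD libraries. The groups did not overlap, with VWAT_HFD replicate 1 well above the others, and the change was 2.48-fold (log2 1.31 ± 0.39, SE; edgeR adjusted p = 0.0382). It rested on 70 reads in the 3 VWAT_HFD libraries and 28 in the 3 VWAT_SD libraries, a ratio of 2.57 with a 95% interval of 1.64 to 4.14 that covers counting error only. As a share of Cox4i1 and Cox4i2 per length, Cox4i2 was 0.416% ± 0.088 in VWAT_HFD and 0.187% ± 0.0782 in VWAT_SD (SD, n = 3 each), so the common form made up nearly all of subunit IV transcripts in both groups.

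Atp5g1 had 35.4, 35.2 and 29.3 CPM in VWAT_HFD libraries, against 23.1, 23.4 and 27.0 CPM in VWAT_SD libraries. The groups did not overlap (log2 0.44 ± 0.14, SE; edgeR adjusted p = 0.0494), and 7.29% of its 75-base stretches also occur in transcripts of other genes. It is 1 of 3 genes, with Atp5g2 and Atp5g3, that encode the same mature c subunit of the complex V rotor. The other two had log2 changes of 0.21 (adjusted p = 0.349) and 0.31 (adjusted p = 0.1), and Atp5g1 gave 6.78% ± 0.408 of the 3 genes' transcripts per length in VWAT_HFD and 6.04% ± 0.2 in VWAT_SD (SD, n = 3 each). Atp5g3 gave 61.8% ± 1.44 in VWAT_HFD and 60.5% ± 0.747 in VWAT_SD. These shares depend on the median annotated lengths, 2675 bp for Atp5g1, 683 bp for Atp5g2 and 718 bp for Atp5g3. The isoforms present were not determined, and with shorter Atp5g1 transcripts its share would be larger. Undivided by length, Atp5g2 had 45.7, 43.5 and 30.5 CPM in VWAT_HFD libraries, much closer to Atp5g1 than the shares are.

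Ndufaf1, which chaperones an early intermediate of complex I, had 5.68, 5.68 and 6.47 CPM in VWAT_HFD libraries, against 7.53, 7.79 and 8.36 CPM in VWAT_SD libraries. All 3 HFD libraries lay below all 3 SD libraries, and the log2 change was -0.41 ± 0.13 (SE; edgeR adjusted p = 0.047). The other 3 assembly factors of the group did not pass, and Ndufaf2 had the highest log2 change among them, 0.23.

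**Figure D2:**
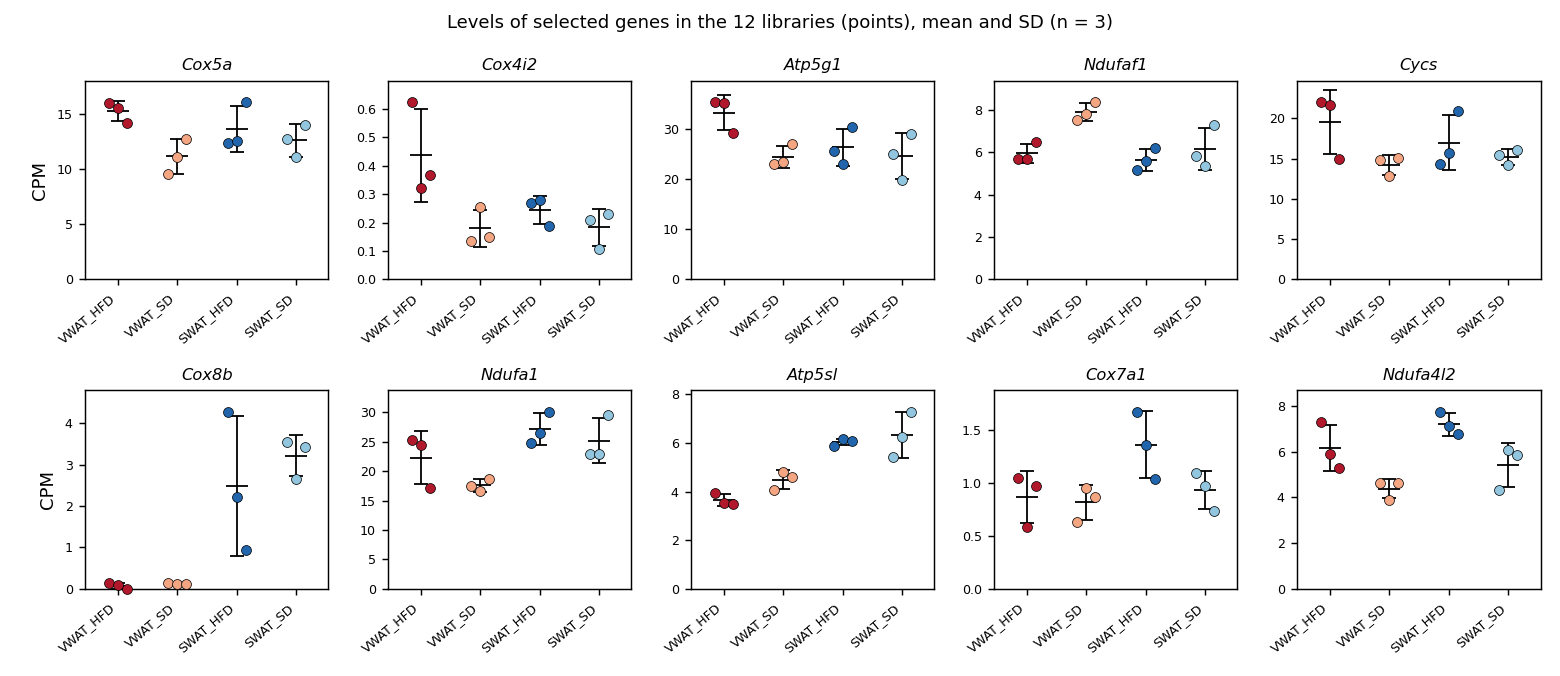
CPM (TMM-scaled) of 10 genes in the 12 libraries, with the mean and SD of each group of 3. Cox5a, Cox4i2 and Atp5g1 lie higher and Ndufaf1 lower in all VWAT_HFD libraries than in any VWAT_SD library, and Cox8b is near 0 in all 6 VWAT libraries.

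By complex, the median log2 change in VWAT was 0.33 for complex IV, 0.26 for complex V, 0.19 for complex II, 0.11 for complex III and 0.11 for complex I. Without VWAT_HFD replicate 1 these medians were 0.13, 0.12, 0.07, -0.03 and 0.01 in the same order of complexes. No complex I, II or III subunit passed the test. Within complex IV the 11 common-form subunits all had changes above 0, between 0.03 (Cox8a) and 0.50 (Ndufa4), and 1 of them, Cox5a, passed. With library size alone, 10 of these 11 remained above 0. Cox6a1 and Cox6b1, the common forms of subunits VIa and VIb, had changes of 0.33 and 0.38 (adjusted p = 0.116 and 0.119), and Cox4i1 had one of 0.11 (adjusted p = 0.677). All 15 complex V subunits had changes above 0, between 0.03 (Atp5h) and 0.44 (Atp5g1), and 14 of them did with library size alone. In complex I, 31 of 36 were above 0, with a median of 0.07 for the 7 nuclear core subunits that carry the redox centres and 0.15 for the 29 supernumerary subunits. These medians were not tested against one another.

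Among the catalytic and marker subunits of each complex (Ndufs1, Ndufv1, Sdha, Sdhb, Uqcrfs1, Cyc1, Cycs, Cox4i1, Atp5a1 and Atp5b) none passed edgeR's test in VWAT. Their log2 changes lay between -0.18 for Sdha and 0.46 for Cycs. Cycs, the electron carrier cytochrome c, had 22.0, 21.7 and 15.0 CPM in VWAT_HFD libraries, against 14.8, 12.8 and 15.1 CPM in VWAT_SD libraries. Replicates 1 and 2 of VWAT_HFD lay above all SD libraries and replicate 3 among them (edgeR adjusted p = 0.0667), and the change passed with DESeq2. Sdha, the flavoprotein of complex II, had 97.3, 103 and 106 CPM in VWAT_HFD libraries, against 113, 111 and 124 CPM in VWAT_SD libraries. The groups did not overlap, yet the change missed the threshold (edgeR adjusted p = 0.153), and Sdhb, its iron-sulphur partner, had a log2 change of 0.25 (adjusted p = 0.235). In SWAT, Sdha had 93.2, 98.9 and 109.5 CPM in HFD libraries, against 114, 109.9 and 115 CPM in SD libraries, again wholly below (log2 -0.17; adjusted p = 0.382).

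Over all 89 genes, 4 had their 3 VWAT_HFD libraries wholly above and 4 wholly below the VWAT_SD libraries, where 15.5% and 17.5% of all genes tested did. The further genes in these counts were Ndufa4l2, wholly above, and Sdha, Atp5s and Atp5sl, wholly below. Ndufa4l2, a paralog known to be induced by hypoxia in other cells, had 7.30, 5.92 and 5.29 CPM in VWAT_HFD libraries, against 4.63, 3.89 and 4.63 CPM in VWAT_SD libraries. The change was just short of the threshold (log2 0.49 ± 0.16, SE; edgeR adjusted p = 0.0511). In SWAT it had 7.76, 7.12 and 6.76 CPM in HFD libraries, against 4.32, 6.08 and 5.87 CPM in SD libraries, again with no overlap (log2 0.41; adjusted p = 0.263). Cox7a2l, grouped here as a supercomplex factor, had a log2 change of -0.30 in VWAT (adjusted p = 0.136). Cox7a2, a complex IV subunit of related sequence, had one of 0.38 (adjusted p = 0.135). Supercomplexes were not measured, and whether Cox7a2l protein acts in them in this mouse strain was not tested.

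The VWAT_HFD libraries differed among themselves in the level of the whole chain. Relative to each gene's mean over the 12 libraries, the median of the 89 genes was 0.29, 0.13 and -0.20 (log2) in VWAT_HFD replicates 1, 2 and 3, against -0.17, -0.13 and 0.06 in VWAT_SD. It was -0.04, -0.05 and 0.14 in SWAT_HFD, against -0.09, -0.11 and 0.18 in SWAT_SD. Replicate 1 of VWAT_HFD was the highest of the 12 libraries for all 5 complexes and for 50 of the 89 genes. Replicate 3 was the lowest of the 12 for complexes I, III and V and for 32 of the genes, and 81 of the 89 were lower in it than in both other VWAT_HFD libraries. Complex V subunits together had 1549.5, 1444.1 and 1118.4 CPM in VWAT_HFD libraries, against 1104.2, 1131.8 and 1279.7 CPM in VWAT_SD libraries. Complex IV subunits together had 700.3, 593.8 and 440.4 CPM in VWAT_HFD libraries, against 446.9, 456.1 and 535.1 CPM in VWAT_SD libraries. In both sums replicate 3 of VWAT_HFD lay among the SD libraries or below them.

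Other gene groups also differed among the VWAT_HFD libraries. Cytosolic ribosomal protein genes, whose transcripts are short like those of the respiratory chain (median 710 bp for the 89 genes and 2156 bp for other genes), had medians of 0.21, -0.18 and -0.51 in VWAT_HFD, against -0.20, -0.18 and 0.03 in VWAT_SD. Other genes with transcripts of up to 1000 bp had medians of 0.09, 0.01 and -0.06 in VWAT_HFD, against -0.04, -0.03 and 0.04 in VWAT_SD. The 7501 other genes over 2000 bp ran the other way, with -0.06, -0.01 and 0.05 in VWAT_HFD, against 0.04, 0.03 and -0.03 in VWAT_SD. Cell-cycle markers summed to 176.5, 284.3 and 73.8 CPM in VWAT_HFD, against 19.9, 24.9 and 15.3 CPM in VWAT_SD, highest in replicate 2 and lowest in replicate 3 among the HFD libraries. Of 6 endothelial markers, 5 descended over VWAT_HFD replicates 1, 2 and 3 as the respiratory genes did, and the exception was Tek, the most abundant. This order held for 1 of 2 red cell, 1 of 6 mural cell and 2 of 9 leukocyte genes. It held for 0 of 5 mesothelial and 0 of 5 cell-cycle genes. Replicate 3 was the lowest for 2 red cell, 2 mural cell, 6 leukocyte, 4 mesothelial and 5 cell-cycle genes. Pecam1 had 8.66, 5.70 and 1.44 CPM in VWAT_HFD, against 5.14, 6.01 and 2.38 CPM in VWAT_SD, and Cdh5 had 12.5, 7.80 and 1.10 CPM in VWAT_HFD, against 10.8, 8.36 and 5.13 CPM in VWAT_SD. In VWAT_SD these 2 were lowest in replicate 3, where the respiratory genes were highest. The red cell gene Hbb-b1 had 6.86, 6.30 and 0.796 CPM in VWAT_HFD, against 2.64, 5.97 and 2.66 CPM in VWAT_SD. Summed over the whole lists, the ranges were 186 to 224.8 CPM in VWAT_HFD and 193.5 to 244.8 CPM in VWAT_SD for the endothelial genes, and 1.18 to 8.95 CPM in VWAT_HFD and 3.64 to 8.10 CPM in VWAT_SD for the 2 red cell genes. The part of transcript length, of cell-cycle composition or of these other cells in the change of the respiratory genes was not tested.

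**Figure D3:**
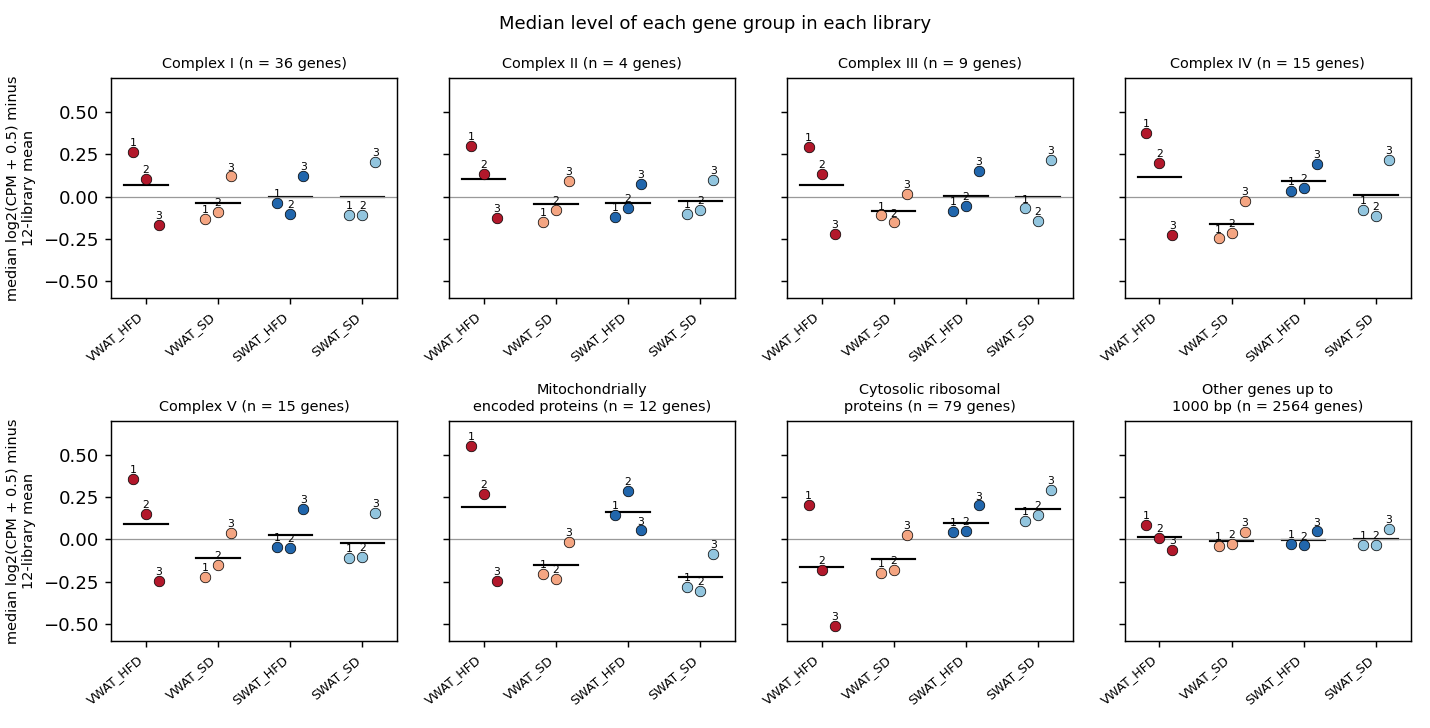
Median over genes of log2(CPM + 0.5) minus the 12-library mean, for each complex, the mitochondrially encoded proteins, the cytosolic ribosomal proteins and other genes with transcripts of up to 1000 bp. Points are libraries with their replicate number and bars are group means; VWAT_HFD replicate 1 is highest and replicate 3 among the lowest in all 5 complexes.

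The count of called genes in VWAT depended on that library, which was singled out after its values were seen. Without VWAT_HFD replicate 3, 33 of the 89 genes rose and 1 fell, which is 38.2% against 29.8% of all genes. Of all genes, 14.9% rose in that setting. Only 1 was called without VWAT_HFD replicate 1 (Cox7a2l, which fell) or SWAT_SD replicate 1 (Ndufa4l2, which rose), neither called with all libraries. Likewise 1 was called without VWAT_SD replicate 2 (Cox4i2), VWAT_SD replicate 3 (Cox5a) or SWAT_HFD replicate 1 (Cox5a). None was called without VWAT_HFD replicate 2 or VWAT_SD replicate 1, and a fit of the 6 VWAT libraries by themselves called 1, Atp5g1. In these settings with 1 call or none, 5.29 to 13.9% of all genes were called. Without replicate 3, 9 of 15 complex IV subunits rose, 8 of 15 complex V, 2 of 4 complex II, 9 of 36 complex I and 2 of 9 complex III subunits, together with Cycs, Ndufa4l2 and Ndufaf2. The lowest adjusted p there were those of Ndufa4 (log2 0.72, adjusted p = 0.00164), Cox7c (0.57, 0.0018), Atp5f1 of the complex V stalk (0.51, 0.00209) and Ndufc2 of complex I (0.58, 0.00281). Cycs had a log2 change of 0.62 and Uqcrq, a small complex III subunit, of 0.73. With all libraries Uqcrq had 47.3, 42.6 and 27.5 CPM in VWAT_HFD, against 25.2, 26.0 and 30.1 CPM in VWAT_SD, and did not pass (edgeR adjusted p = 0.0807). The median changes without replicate 3 were 0.49 for complex IV, 0.37 for complex V, 0.31 for complex II, 0.28 for complex I and 0.27 for complex III, in the same descending order for IV, V and II as with all libraries.

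**Figure D4:**
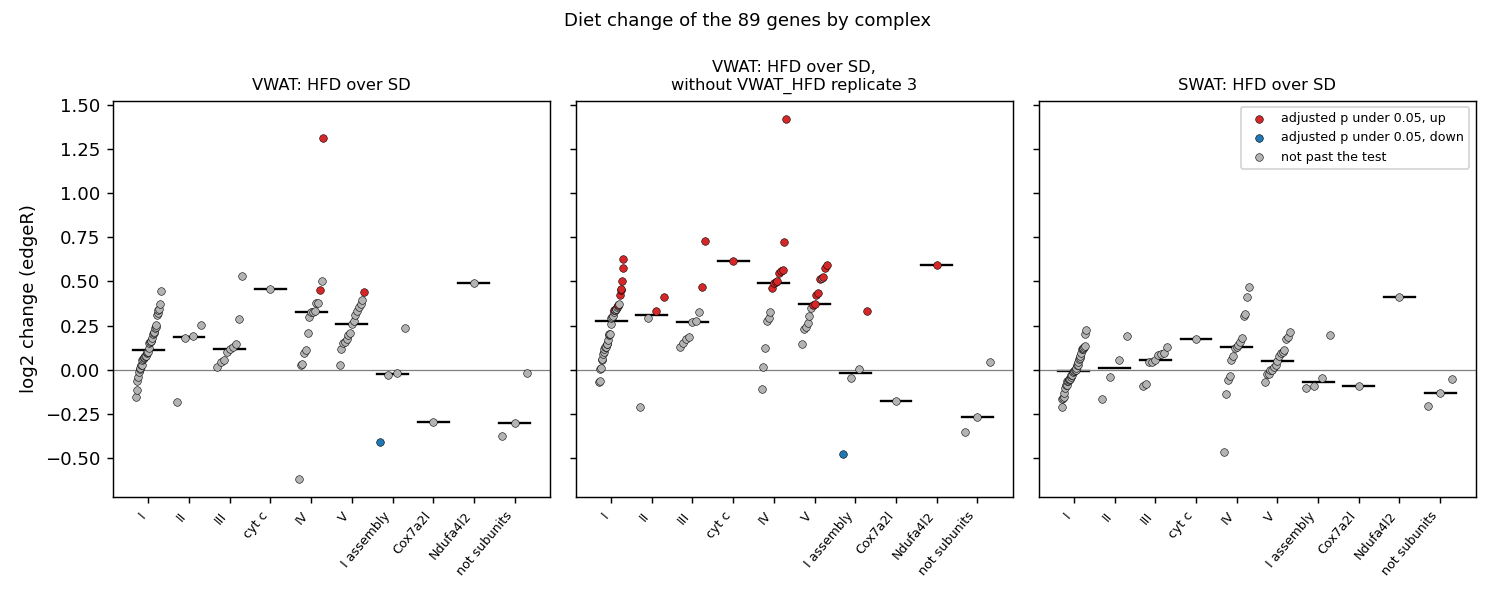
Log2 change with HFD of each of the 89 genes by complex (edgeR), for VWAT with all libraries, VWAT without VWAT_HFD replicate 3, and SWAT. Bars are medians; red and blue mark genes past an adjusted p of 0.05, 4 genes in VWAT with all libraries, 34 without replicate 3 and none in SWAT.

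In SWAT none of the 89 genes passed (edgeR), where 1.11% of all genes tested were called and 0.967% rose, and 2 had an unadjusted p under 0.05, Ndufa4l2 and Cox4nb. DESeq2 and limma voom called none either. The lowest adjusted p, 0.263, was that of Ndufa4l2. Median log2 changes (HFD over SD) were 0.13 for complex IV, 0.05 for complex III, 0.05 for complex V, 0.01 for complex II and -0.01 for complex I, and 50 genes lay above 0 and 39 below. The number above 0 was 76 without SWAT_SD replicate 3 and 29 without SWAT_HFD replicate 3. With library size alone the medians of all 5 complexes were below 0, beside a median of -0.18 for all genes tested. In 4 genes the SWAT_HFD libraries lay wholly above and in 2 wholly below the SWAT_SD libraries, where 11.6% and 10.2% of all genes tested did. Cox5a had 12.4, 12.6 and 16.1 CPM in SWAT_HFD libraries, against 12.8, 11.1 and 14.1 CPM in SWAT_SD libraries. Atp5g1 had 25.7, 23.1 and 30.4 CPM in SWAT_HFD libraries, against 25.0, 19.9 and 29.0 CPM in SWAT_SD libraries. The groups overlapped for both genes. The 10 catalytic and marker subunits had log2 changes between -0.17 (Sdha) and 0.17 (Cycs).

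Whether the diet change differed between the depots was tested as an interaction (the VWAT change minus the SWAT change). It called none of the 89 genes and 0% of all genes tested, although 1026 of all genes had an unadjusted p under 0.05 and DESeq2 called 35, none of them in the group. None of the 89 had an unadjusted p under 0.05. The lowest was that of Ndufa11, a complex I membrane-arm subunit, at 0.0553 (log2 0.40 ± 0.19, SE; edgeR adjusted p = 0.711). Ndufa11 had 28.2, 24.6 and 20.4 CPM in VWAT_HFD, against 17.7, 18.7 and 21.3 CPM in VWAT_SD, and 21.6, 20.1 and 22.1 CPM in SWAT_HFD, against 20.3, 20.1 and 26.4 CPM in SWAT_SD. The next by p were Cox5a (0.32, adjusted p = 0.808), Atp5g1 (0.33, 0.811), Ndufaf1 (-0.31, 0.811) and Uqcrq (0.40, 0.842). Without VWAT_HFD replicate 3 the interaction again called none of the 89, with 15 at an unadjusted p under 0.05. The calls in VWAT and their absence in SWAT are thus not shown to differ between the depots.

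VWAT against SWAT on the same diet asks how the depots' precursors differ. On SD, 3 of the 89 genes (Cox8b, Ndufa1 and Atp5sl) were lower in VWAT and none was higher, which is 3.37% against 25.7% of all genes tested (edgeR). On HFD, 2 (Cox8b and Atp5sl) were lower and none higher, 2.25% against 26.8% of all genes. Ndufaf1 had 7.53, 7.79 and 8.36 CPM in VWAT_SD libraries, against 5.83, 5.35 and 7.29 CPM in SWAT_SD libraries, and just missed the threshold (log2 0.37 ± 0.13, SE; edgeR adjusted p = 0.0524). It passed as higher in VWAT with the replicate number as a block (0.37; edgeR adjusted p = 0.0246), and with DESeq2 (0.0362) and limma voom (0.0215). The median log2 difference (VWAT over SWAT) of the 89 genes was -0.09 on SD and 0.06 on HFD, and neither direction held with every library left out. On SD it was 0.0032 without SWAT_SD replicate 3 and -0.17 without VWAT_SD replicate 3, and on HFD -0.05 without VWAT_HFD replicate 1 and 0.19 without VWAT_HFD replicate 3. By size, 88 genes on SD and 85 on HFD differed by under 1.5-fold. With library size alone the median of the 89 was 0.12 on SD and 0.34 on HFD, beside 0.24 and 0.30 for all genes, and the count called on HFD was 37 (41.6%, against 48.7% of all genes), of which 35 were higher in VWAT. On HFD, 9 were called without VWAT_HFD replicate 3, 5 without VWAT_HFD replicate 1 and 4 without SWAT_HFD replicate 3, and on SD 1 was called without VWAT_SD replicate 1. The VWAT libraries lay wholly above the SWAT libraries in 2 genes on SD (Ndufaf1 and Atp5s) and wholly below in 8, where 23.6% and 21.4% of all genes tested did. On HFD they lay wholly above in 2 (Ndufs1 and Cox4i2) and wholly below in 2, where 17.7% and 18.2% did.

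Cox8b was the outstanding member. In mice it is the form of subunit VIII found in heart, skeletal muscle and brown fat, with Cox8a as the common form. On SD it had 0.136, 0.106 and 0.111 CPM in VWAT libraries, against 3.56, 2.64 and 3.44 CPM in SWAT libraries. On HFD it had 0.135, 0.0803 and 0 CPM in VWAT libraries, against 4.28, 2.23 and 0.936 CPM in SWAT libraries. All VWAT libraries lay below all SWAT libraries on either diet, and the fitted log2 differences were -4.73 ± 0.58 on SD (edgeR adjusted p = 3.79e-05) and -4.88 ± 0.64 on HFD (SE; edgeR adjusted p = 6.51e-05). By reads, 19 fell on Cox8b in VWAT_SD and 383 in SWAT_SD, so that the level in SWAT was 26.9-fold that in VWAT, with a 95% counting interval of 17.0 to 45.1. On HFD there were 12 reads in VWAT and 181 in SWAT, a 24.6-fold level with an interval of 13.8 to 48.6. The count of 0 in VWAT_HFD replicate 3 allows a level of up to 0.0645 CPM, the worth of 3 reads there. Cox8b had no 75-base stretch in any other annotated transcript and no overlapping gene.

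Cox8a showed no such difference. Its level was 49.98, 54.0 and 60.6 CPM in VWAT_SD libraries, against 63.0, 54.7 and 72.3 CPM in SWAT_SD libraries, and the groups overlapped (log2 -0.21; edgeR adjusted p = 0.268). Per length, Cox8b made up 0.33% ± 0.0732 of Cox8a and Cox8b in VWAT_SD and 7.2% ± 0.649 in SWAT_SD, and 0.181% ± 0.167 in VWAT_HFD and 6.0% ± 3.51 in SWAT_HFD (SD, n = 3 each). The spread in SWAT_HFD came from a share of 9.42% in the highest library and 2.4% in the lowest. With HFD, Cox8b had log2 changes of -0.62 in VWAT and -0.47 in SWAT, neither of which passed (edgeR adjusted p = 0.663 and 0.687).

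The other tissue forms did not separate the depots in this way. Cox7a1, the muscle and brown fat form of subunit VIIa, had 1.04, 0.582 and 0.968 CPM in VWAT_HFD libraries, against 1.67, 1.36 and 1.04 CPM in SWAT_HFD libraries (log2 -0.60; edgeR adjusted p = 0.145). The groups overlapped narrowly, the highest VWAT library lying just above the lowest SWAT library. Cox6b2, the testis form of subunit VIb, differed by 0.23 on SD and -0.06 on HFD (log2), with adjusted p of 0.721 and 0.929. Cox4i2 had a log2 difference of 0.0021 on SD and one of 0.90 on HFD that did not pass (adjusted p = 0.133). The brown or beige fat list held 3 genes in the table, Cox8b itself, Dio2 and Ppargc1a, and neither of the other two differed between the depots by the test (adjusted p of 0.244 and 0.595 on SD, 0.261 and 0.86 on HFD). Of 3 muscle genes in the table, another known site of Cox8b, none passed on either diet, and their sum, carried by Tnnt3, was 2.73 to 3.56 CPM in VWAT_SD and 2.98 to 3.16 CPM in SWAT_SD, and 2.07 to 3.00 CPM in VWAT_HFD and 2.56 to 3.21 CPM in SWAT_HFD. Mylpf lay wholly below in VWAT on both diets (log2 -0.91 on SD and -0.75 on HFD; edgeR adjusted p = 0.0737 and 0.141), and Acta1 did on HFD (-1.02; adjusted p = 0.1). The part of other cell types in the Cox8b difference was not tested.

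Ndufa1, an X-linked subunit needed to assemble the membrane arm of complex I, had 17.4, 16.6 and 18.7 CPM in VWAT_SD libraries, against 23.0, 23.0 and 29.6 CPM in SWAT_SD libraries. The groups did not overlap (log2 -0.51 ± 0.15, SE; edgeR adjusted p = 0.0201). With any 1 of 3 libraries left out it did not pass, with adjusted p of 0.0604 for VWAT_SD replicate 1, 0.0736 for VWAT_SD replicate 2 and 0.0835 for SWAT_SD replicate 3. On HFD it had 25.3, 24.5 and 17.1 CPM in VWAT libraries, against 24.8, 26.5 and 30.1 CPM in SWAT libraries, which overlapped (log2 -0.29; adjusted p = 0.179). Atp5sl, named after complex V but now called Dmac2 and known as a complex I assembly factor, was lower in VWAT on both diets. It had 4.08, 4.82 and 4.58 CPM in VWAT_SD libraries, against 5.41, 6.26 and 7.29 CPM in SWAT_SD libraries (log2 -0.48 ± 0.13, SE; edgeR adjusted p = 0.0151), a call lost without VWAT_SD replicate 1 (0.0704) or SWAT_SD replicate 3 (0.0621). On HFD it had 3.94, 3.51 and 3.48 CPM in VWAT libraries, against 5.89, 6.16 and 6.08 CPM in SWAT libraries (log2 -0.73 ± 0.13, SE; edgeR adjusted p = 0.00112). No VWAT library reached any SWAT library on either diet. With library size alone as the scaling, the Ndufa1 difference and that of Atp5sl on SD no longer passed, while Cox8b on both diets and Atp5sl on HFD did.

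**Figure D5:**
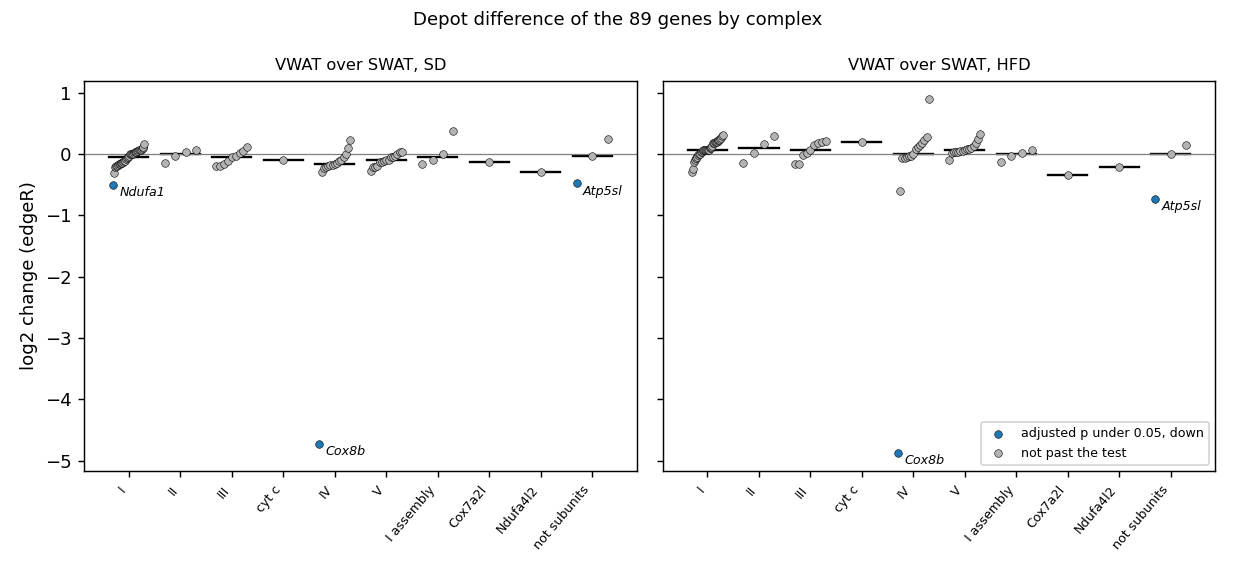
Log2 difference of VWAT over SWAT for each of the 89 genes by complex (edgeR), on SD and on HFD. Bars are medians; the named genes in blue passed an adjusted p of 0.05, and Cox8b at -4.73 and -4.88 stands far from the rest.

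Subunits encoded in mitochondrial DNA form complexes with the products of these nuclear genes. All 12 of the measured ones had log2 changes above 0 with HFD in both VWAT (median 0.43) and SWAT (median 0.41), also with library size alone (0.32 and 0.23), and none passed the test in either. They summed to 19350, 14710 and 10860 CPM in VWAT_HFD libraries, against 11260, 11260 and 12580 CPM in VWAT_SD libraries. In SWAT they summed to 14210, 15630 and 13500 CPM in HFD libraries, against 10560, 10640 and 12460 CPM in SD libraries. The SWAT groups did not overlap, whereas VWAT_HFD replicate 3 was below every VWAT_SD library. Since the libraries were made from poly(A) RNA, these values describe polyadenylated mitochondrial transcripts. The complex V genes mt-Atp6 and mt-Atp8 were barely counted, at 0.344 to 1.11 and 0.953 to 2.0 CPM over the libraries. By contrast mt-Co3 had 1196 to 2876 CPM, so the changes of mt-Atp6 and mt-Atp8 say little about mitochondrially encoded complex V subunits.

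Of 12 regulators of nuclear respiratory genes, 1 rose and 2 fell with HFD in VWAT and none passed in SWAT. Of all genes tested, 15.6% were called in VWAT and 1.11% in SWAT. None of the 12 regulators passed the interaction, so their changes are not shown to differ between the depots. Ppargc1a, the coactivator that drives mitochondrial biogenesis, had 0.286, 0.301 and 0.710 CPM in VWAT_HFD libraries, against 1.24, 1.40 and 1.68 CPM in VWAT_SD libraries. The groups did not overlap (log2 -1.75; edgeR adjusted p = 0.0159). In SWAT the log2 change of Ppargc1a was -1.25 (adjusted p = 0.239). These levels of Ppargc1a are low, and no counting interval is given for them. In VWAT Polrmt, the mitochondrial RNA polymerase, also fell (log2 -0.55; adjusted p = 0.0124). Gabpb1, a partner of the DNA-binding GABPA, rose there (0.49; adjusted p = 0.0202). Ppargc1b was the only regulator called between the depots, lower in VWAT on SD (log2 -1.22; adjusted p = 0.0227) and on HFD (-1.61; adjusted p = 0.007).

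Other mitochondrial lists also moved little with diet. Of 75 mitochondrial ribosomal protein genes, Mrpl1 fell in VWAT (log2 -0.44; edgeR adjusted p = 0.0103) and the median change was 0.05. Of 9 coenzyme Q genes, Coq10b rose in VWAT (0.34; adjusted p = 0.0228), and none of 26 further assembly factors or 13 genes of the tricarboxylic acid cycle passed there. In SWAT none of these 4 lists had a called gene.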

How the data were processed

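The deposited data are raw read counts by gene for the 12 libraries, in 1 table by the authors with 3 more entries that name no gene and held the reads in no gene, in several genes or not uniquely aligned (3.53 to 5.57%, 1.71 to 1.95% and 14.98 to 20.81% of all counts in the table, by library), which were left out. TopHat, HTSeq and the build mm9 are named, with no role given, per the submitters' processing notes; versions and the strand setting are not given in the sources used here, so overlapping genes are uncertain. Reads that align to several places are not counted, and 39 of the 89 genes share at least 1 stretch of 75 bases, the read length, with another gene's transcript (19 over at least 10% of their length, 1, Atp5l, over at least 50%; GENCODE vM21).

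The group-wise filter filterByExpr left 14266 of 14398 genes. A robust quasi-likelihood model of edgeR 4.0.16 (R 4.3.3) with TMM scaling was fitted to all 12 libraries at once, with 1 term for each of the 4 groups. Adjusted p-values are Benjamini-Hochberg values over all genes tested, for each of 5 contrasts, and a gene was called under 0.05. "Rose" and "fell" are used of called genes. CPM are TMM-scaled. Medians by library use log2(CPM + 0.5). An exact permutation test of 3 against 3 cannot go below a two-sided p of 0.1, so none was run. The labels name no separate cultures beyond pools of 3 mice. Intervals and floors (3 counts) cover counting error only.

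The genes, lists and named genes were chosen with earlier results of these data known. Named were, for each comparison, the called genes (up to 10 in each direction, or the 5 lowest p where none was called) and a fixed set of catalytic subunits and paralog pairs; others were added after their values were seen. Whether replicate numbers pair the samples was checked by the correlation (Pearson r) of same-numbered libraries in their deviations from group means. All 3 pairs were above 0.1 between VWAT_SD and SWAT_SD (0.366 to 0.668) and between SWAT_HFD and SWAT_SD (0.124 to 0.3), none between VWAT_HFD and VWAT_SD (-0.196 to -0.026) and 1 between VWAT_HFD and SWAT_HFD (-0.106 to 0.187). Differently numbered libraries could correlate too, such as VWAT_SD replicate 1 with SWAT_SD replicate 2 (0.214). SWAT_HFD replicate 1 had a higher r with SWAT_SD replicate 2 (0.147) than with SWAT_SD replicate 1 (0.124). A pairing by number is thus possible in the first 2 of these comparisons but not established, and the labels state none. Alternatives were DESeq2 size factors, library size alone, no filter, DESeq2 (1.42.0), limma voom (3.58.1), only the libraries compared, a replicate block, each library left out, and complexes assigned by symbol alone. The test was checked on counts simulated for HFD against SD in VWAT over 14398 genes, where it called 14 of 34 genes changed 1.5-fold, 60 of 67 changed 2-fold, 66 of 66 changed 4-fold and 11 of 14082 unchanged genes. Promoter windows are RefSeq's (GRCm38.p6), not the authors' build.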

Additional observations from a re-analysis of the deposited data

How the results depend on the processing

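Cox8b was lower in VWAT than in SWAT on both diets, and Atp5sl on HFD, under all 19 alternatives run. The count of called genes for HFD against SD in VWAT, 4 in the main analysis, was 1 with only the 6 libraries compared and 0 to 34 with single libraries left out. There it was highest without VWAT_HFD replicate 3, and the cause was not tested. VWAT against SWAT on SD called 3, and 1 to 4 with libraries left out, the lowest without VWAT_SD replicate 1. On HFD it called 2, and 2 to 9 with libraries left out, and 37 with library size alone. In SWAT and for the interaction the count was 0 under every alternative.

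Library size alone shifted the median of all genes, and moved the complex medians with it. For the diet change in SWAT they became -0.17 for complex II and -0.13 for complex V. For VWAT over SWAT on SD they became 0.17, 0.22, 0.16, 0.0465 and 0.11 for complexes I to V, and on HFD 0.34, 0.37 and 0.35 for complexes I to III.

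With the replicate number as a block, 4 genes were called for diet in VWAT, 0 in SWAT, 0 for the interaction, and 4 and 2 between the depots on SD and HFD, and the gene gained on SD was Ndufaf1. Of single named genes, 41 values lost and 33 gained the call, while 2365 kept their side of the threshold, with no called direction reversed. Depth limits Cox4i2 and Cox8b most, which had as few as 4 and 0 reads in a library.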
